A study of Homo sapiens with 8 samples.

Results

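HMOX1 and 9 further genes of heme breakdown, heme synthesis and iron handling were followed in an unnamed cell line from human NSCLC adenocarcinoma treated with the PPARγ ligand rosiglitazone and the platinum drug carboplatin. The members were chosen by gene symbol: every probe set of an Affymetrix human expression array whose annotation gives only 1 gene, that gene being HMOX1, HMOX2, BLVRA, BLVRB, FTL, FTH1, TFRC, ALAS1, FECH or SLC40A1. This found 15 probe sets of 8 genes, out of 11963 genes named on the array, and FTH1 and SLC40A1 were not analysed here. The 4 groups were cells given both drugs (the combination), rosiglitazone at 1 µM, carboplatin at 10 µM, or control medium, each for 24 h with 2 arrays, with no dose given again for the combination. The series' design text calls the control DMSO/control. All groups share 1 cell line, and separate cultures are not stated, so p-values here rest on array-to-array spread that may be technical. The series title speaks of synergy between such ligands and platinum drugs. The comparisons of the combination here are of RNA, and that synergy itself was not tested.

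Heme oxygenase opens the heme ring to biliverdin, carbon monoxide and ferrous iron, with electrons supplied by cytochrome P450 reductase (POR). Biliverdin reductases turn biliverdin into bilirubin, and the iron is stored in ferritin or exported by ferroportin (SLC40A1). Cells take up iron through the transferrin receptor and build new heme in a pathway that ALAS1 begins and FECH ends. HMOX1 is the inducible heme oxygenase, switched on by the transcription factor NRF2 and repressed by BACH1, whereas HMOX2 is expressed constitutively. Ferritin output is known to be set largely at translation, which an RNA measurement does not see.

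Array medians of the deposited signal ran from 36.2 to 54.3. Each marker gene was read by its brightest probe set only, and the summed signals are of those probe sets. Of 6 epithelial markers 5 passed the filter on dim probe sets, led by KRT18 at a mean of 12.31 on the log2 scale below, and EPCAM did not. The dimmer probe sets of KRT7 and CDH1 did not pass. Of 3 lung lineage markers measured 2 passed, the surfactant genes SFTPB at 5.98 and SFTPC at 5.97, and NKX2-1 did not. None of the other SFTPC probe sets passed, and those of SFTPB were divided. Of the 4 leukocyte markers measured, 0 passed that filter, and their summed deposited signal was 13.2 to 41.0 over the 8 arrays. Of 2 erythroid markers the globin HBB passed at 6.07 and ALAS2, the erythroid enzyme of heme synthesis, did not, and their summed signal was 38.5 to 76.2. Of 4 endothelial and fibroblast markers 1 passed, COL1A1 at 7.16, with a summed signal of 128 to 197. The probe sets of HBB were divided as well, and none of the other COL1A1 probe sets passed. A pass of SFTPB, SFTPC, HBB or COL1A1 thus rests on only part of the probe sets of that gene. The part of such markers in the results was not tested. Arrays of 1 group correlated at 0.974 to 0.976 and arrays of different groups at 0.964 to 0.984 across 13329 probe sets.

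Promoter sequences from RefSeq (GRCh38.p14, 250 bases before to 50 after the start) were at hand for 8 of the 10 genes, as 9 promoters, since HMOX2 has 2 starts. HMOX1 and FTH1 had no promoter at hand and were not searched, which left these 9 promoters. They were searched on both strands for the core of the antioxidant response element, the letters TGACNNNGC through which NRF2 acts, and for the E-box CACGTG, a motif bound by USF and MYC family factors. The 2 matches found, both before a start site, are shown to place these motifs beside the measurements, in capitals, 5′ to 3′ on the strand of the gene.
FECH: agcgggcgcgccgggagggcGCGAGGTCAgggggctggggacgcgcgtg
HMOX2: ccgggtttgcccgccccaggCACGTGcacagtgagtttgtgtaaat
The FECH stretch is chr18:57586712-57586760 (minus strand), and its capitals are a match on the opposite strand that begins 38 bases before the start. The HMOX2 stretch is chr16:4474688-4474733 (plus strand), from the upstream of its starts, with the E-box beginning 28 bases before it. The antioxidant core was found in 13.3% and the E-box in 7.26% of all 35116 promoters of this length. The promoters of BLVRA, BLVRB, FTL, TFRC, ALAS1 and SLC40A1 held neither run of letters in this window. A match describes letters only, and says nothing of whether a factor binds.

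HMOX1 (203665_at, chromosome 22) was higher on every array that received rosiglitazone, with or without carboplatin. Its deposited signal was 562 and 721 with the combination, 515 and 616 with rosiglitazone alone, 258 and 333 with carboplatin, and 312 and 234 in control. The lowest array with rosiglitazone was thus above the highest without it in the deposited signal, whose own scaling is not stated. For tests, signals were taken as log2(signal + 16) and quantile normalized, and a change is a log2 difference on that scale, which understates changes of dim probe sets.

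On the normalized log2 scale HMOX1 stood at 9.47 and 9.21 with the combination, 9.08 and 8.93 with rosiglitazone alone, 8.40 and 8.42 with carboplatin, and 8.22 and 8.22 in control. The group means were 9.34 ± 0.19, 9.005 ± 0.10, 8.41 ± 0.013 and 8.22 ± 0.0022 in the same order (SD, n = 2 each). The arrays with rosiglitazone again lay above those without, and the SD was larger in both groups that received rosiglitazone. Over the 4 arrays with rosiglitazone against the 4 without, HMOX1 rose by 0.86 ± 0.098 (SE), or 1.81-fold with a 95% interval of 1.56 to 2.10 (limma, Benjamini-Hochberg adjusted p = 0.0022). It ranked 15th by p-value among the 13329 probe sets tested. A two-sided exact permutation test of the 4 against 4 arrays gave p = 0.0286, the smallest that its 70 regroupings allow. Any probe set whose 4 arrays do not overlap the other 4 gets this p. That held for 3.19% of all tested in the higher and 2.95% in the lower direction. The permutation test therefore only restates the separation described above. The limma call of HMOX1 was kept under all 17 alternatives run for it, in which the change ran from 0.77 to 1.05. HMOX1 was known to be called in these data when the genes were chosen.

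**Figure D1:**
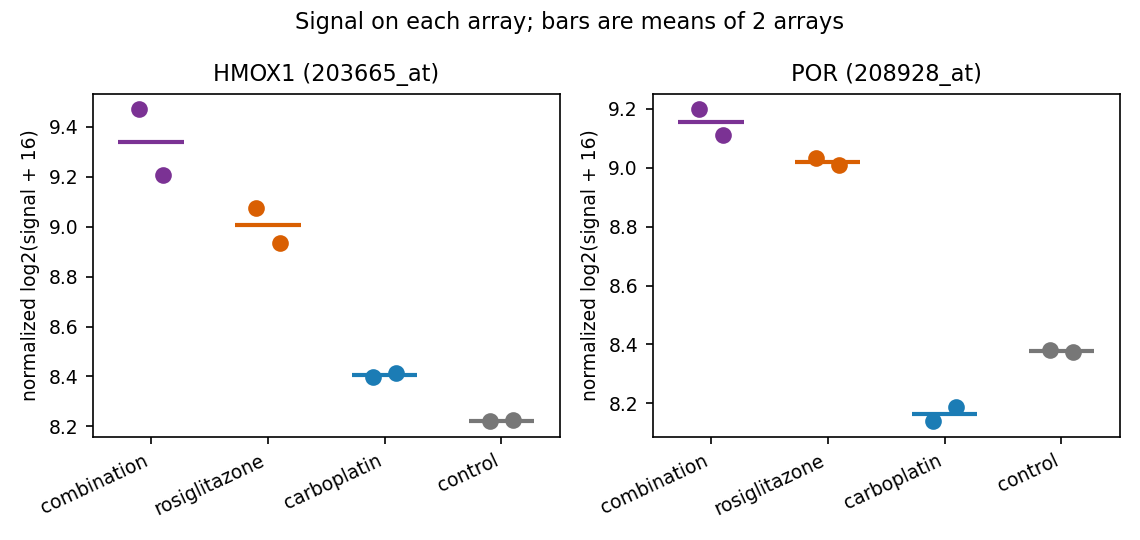
Normalized log2(signal + 16) of HMOX1 (left) and POR (right) on each array, with 2 arrays per group and a bar at their mean. HMOX1 lies at 8.93 or above on the 4 arrays with rosiglitazone and at 8.42 or below on the 4 without, and POR lies at 9.01 or above and at 8.38 or below.

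The same rise was seen in the pairwise comparisons, with less certain calls. Rosiglitazone against control gave 0.78 ± 0.14 (1.72-fold, limma adjusted p = 0.042) and the combination against control gave 1.12 ± 0.14 (2.17-fold, adjusted p = 0.0074). The combination against carboplatin gave 0.93 ± 0.14 (1.91-fold, adjusted p = 0.029). These comparisons share arrays, so they are not independent of each other or of the 4 against 4 comparison. Rosiglitazone against control was called in 5 of 18 alternatives and was lost without control 1 (adjusted p = 0.168), control 2 (0.219), carboplatin 1 (0.0709), carboplatin 2 (0.0694), rosiglitazone 1 (0.323) or rosiglitazone 2 (0.103). The combination against control was called in 13 of 18, and lost without control 1 (adjusted p = 0.0801), control 2 (0.0775) or combination 1 (0.0632). The combination against carboplatin was called in 8 of 18, and lost without carboplatin 1 (adjusted p = 0.203), carboplatin 2 (0.146), rosiglitazone 2 (0.0501), combination 1 (0.182) or combination 2 (0.0714). In all 3 the direction was the same in every alternative.

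Carboplatin alone differed from control in HMOX1 by 0.18 ± 0.14, with a 95% interval of -0.12 to 0.49 (limma adjusted p = 0.929). The 2 carboplatin arrays nonetheless both lay above the 2 control arrays, as was true of 16.3% of all probe sets tested. The combination was above rosiglitazone by 0.33 ± 0.14 (95% interval 0.030 to 0.64), which did not pass (adjusted p = 1.00). Over the 4 arrays with carboplatin against the 4 without, the difference was 0.26 ± 0.098 (95% interval 0.044 to 0.47, adjusted p = 1.00). The interaction, which asks whether the rise with rosiglitazone differed between cells with and without carboplatin, was 0.15 ± 0.20 (95% interval -0.28 to 0.58, adjusted p = 0.935). Single arrays moved these differences by over 1.5 times: without combination 1 the interaction was 0.017 and combination minus rosiglitazone 0.20, and without combination 2 the interaction was 0.28. The interaction was 0.076 without rosiglitazone 2. At this number of arrays neither a carboplatin effect on HMOX1 nor an interaction passed the adjustment over all probe sets. Before that adjustment, the intervals of combination minus rosiglitazone and of the 4 against 4 carboplatin difference excluded 0.

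HMOX2, the constitutive heme oxygenase, did not pass in any comparison, and its 2 probe sets moved differently. The brighter, 218120_s_at, stood at 7.97 and 7.59 with the combination, 7.76 and 7.94 with rosiglitazone alone, 8.01 and 7.75 with carboplatin, and 8.0004 and 8.04 in control. The 3 treated groups overlapped each other, and carboplatin overlapped control. Its difference over the 4 arrays with rosiglitazone against the 4 without was -0.13 ± 0.12 (95% interval -0.41 to 0.14), and it kept its sign in 16 of 17 alternatives. The exception was the deposited scaling (0.060), which moved the median of all probe sets in this comparison to 0.17. The dimmer, 218121_at, stood at 7.34 and 6.69 with the combination, 7.56 and 6.90 with rosiglitazone alone, 6.97 and 6.39 with carboplatin, and 6.55 and 6.70 in control. In each treated group the replicate 1 array was clearly the higher, so the groups with and without rosiglitazone overlapped. Its difference was 0.47 ± 0.20 (95% interval 0.027 to 0.92, limma adjusted p = 0.469). It was 0.31 without rosiglitazone 1 or without combination 1, and 0.77 with array brightness as a covariate (adjusted p = 0.0788).

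BLVRA and BLVRB encode the biliverdin reductases, and whether BLVRB acts on the product of HMOX1 was not measured here. BLVRB (202201_at) stood at 10.26 and 10.13 with the combination, 10.11 and 10.09 with rosiglitazone alone, 9.99 and 10.05 with carboplatin, and 9.80 and 10.03 in control. The 4 arrays with rosiglitazone lay above the 4 without by a small margin, with a difference of 0.18 ± 0.083 (95% interval -0.0044 to 0.36, limma adjusted p = 0.518). HMOX1 and BLVRB were the 2 of 14 tested member probe sets whose 4 rosiglitazone arrays did not overlap the others, both higher, against 3.19% of all probe sets tested. In the lower direction this held for 0 members, against 2.95% of all. Of all members, BLVRB also had the highest Pearson correlation with HMOX1 over the 8 arrays (0.844), a description of arrays that share their groups.

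BLVRA, the other reductase, has 4 probe sets. Over the 4 arrays with rosiglitazone against the 4 without, 203773_x_at differed by 0.14 ± 0.095, 211729_x_at by -0.19 ± 0.10 and 203771_s_at by -0.051 ± 0.14, and none passed. The first lay between 8.71 and 9.01 on the 4 arrays with rosiglitazone and between 8.66 and 8.91 on the 4 without, so that they overlapped. The brightest 2 thus differed in sign, and both have the _x_ in their names that Affymetrix gives to probes shared by similar transcripts. With the deposited scaling 211729_x_at was at 0.0021 and 203771_s_at at 0.11, both under that scaling's median of 0.17 over all probe sets. The 4th, 203772_at, was too dim for the reported fit.

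Ferritin light chain, the FTL product, forms the iron store with the heavy chain. The brighter FTL probe set, 212788_x_at, had the second highest mean of the array. Its deposited signal was 11569 and 14941 with the combination, 13232 and 14863 with rosiglitazone alone, 11754 and 12363 with carboplatin, and 12264 and 11018 in control. It held the highest deposited signal of all probe sets on combination 2 and rosiglitazone 2. The difference with rosiglitazone was 0.048 ± 0.056 (95% interval -0.075 to 0.17), against 0.20 with the deposited scaling and 0.046 with median scaling. With the deposited scaling the median of all probe sets in this comparison was 0.17. The part of the normalization in the FTL values was not tested. It was -0.0070 with array brightness as a covariate.

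The other FTL probe set, 213187_x_at, had a deposited signal of 8061 and 8696 with the combination, 9236 and 9748 with rosiglitazone alone, 7333 and 8145 with carboplatin, and 7491 and 7368 in control. Both rosiglitazone arrays were the highest of the 8, while carboplatin 2 lay above combination 1. Its normalized difference was 0.021 ± 0.069 (95% interval -0.13 to 0.17), with 0.23 in the deposited scaling and 0.082 with median scaling. Neither FTL probe set passed in any of these settings, and both can read ferritin transcripts of similar sequence.

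TFRC is the receptor through which cells take up transferrin-bound iron. Its steadier probe set, 207332_s_at, stood at 11.27 and 11.21 with the combination, 11.19 and 11.33 with rosiglitazone alone, 11.19 and 11.27 with carboplatin, and 11.24 and 11.40 in control. All 4 groups overlapped. The difference with rosiglitazone was -0.026 ± 0.071 (95% interval -0.18 to 0.13), with 0.19 in the deposited scaling and 0.036 with median scaling. The second TFRC probe set, 208691_at, stood at 11.18 and 10.76 with the combination, 10.87 and 11.22 with rosiglitazone alone, 11.12 and 11.08 with carboplatin, and 10.89 and 10.79 in control. Its 8 arrays spanned 0.458, against 0.207 for the first, and its difference was 0.039 ± 0.10 (95% interval -0.19 to 0.27). The intervals of both probe sets lay below the 0.64 at which the interval of HMOX1 began.

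Heme synthesis was read at its first and last steps. ALAS1 (205633_s_at), the first and rate-limiting enzyme, stood at 8.35 and 8.06 with the combination, 7.96 and 8.22 with rosiglitazone alone, 8.11 and 8.04 with carboplatin, and 8.06 and 8.17 in control. Each treated group overlapped control, and the difference with rosiglitazone was 0.051 ± 0.11 (95% interval -0.20 to 0.30). FECH, which inserts iron into the ring, had a brighter probe set, 203116_s_at, at 7.97 and 7.86 with the combination, 8.28 and 8.07 with rosiglitazone alone, 7.95 and 8.09 with carboplatin, and 8.02 and 8.06 in control. The rosiglitazone arrays were above control, as for 2644 of the 13329 probe sets tested. The combination arrays were below control, as for 2599, and neither difference was called. The difference over 4 against 4 arrays was 0.018 ± 0.10 (95% interval -0.21 to 0.25). The dimmer FECH probe set, 203115_at, ran from 5.62 on rosiglitazone 1 to 6.44 on combination 2, with a difference of -0.035 ± 0.18, or 0.15 with the deposited scaling.

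**Figure D2:**
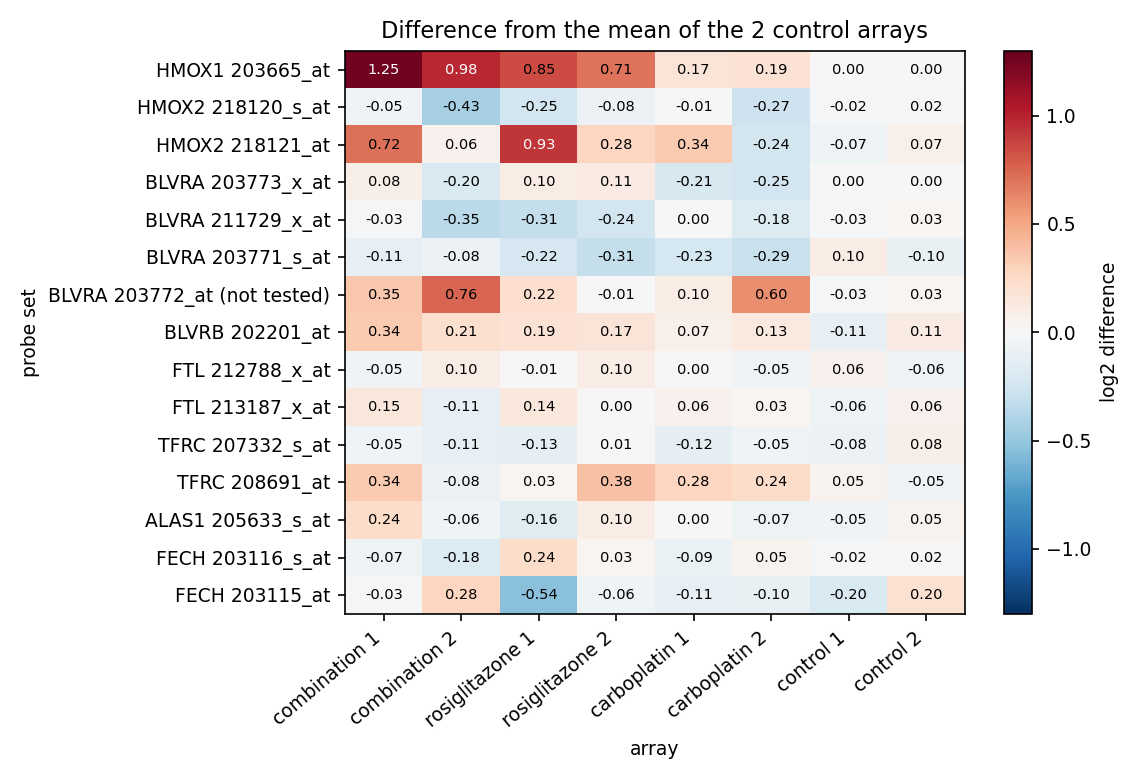
Log2 difference of each of the 15 member probe sets (rows) on each of the 8 arrays (columns) from the mean of the 2 control arrays, on the normalized log2(signal + 16) scale. HMOX1 is high on the 4 arrays with rosiglitazone, while the rows of FTL, TFRC, ALAS1 and FECH vary around 0, with 203115_at of FECH the widest of these. High values also occur for 218121_at of HMOX2 on rosiglitazone 1 and combination 1. The same holds for the dim, untested 203772_at of BLVRA on combination 2 and carboplatin 2.

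Of the 14 member probe sets tested, 1 was called higher (HMOX1) and 0 lower over the 4 arrays with rosiglitazone against the 4 without, where 0.675% of all probe sets were called higher and 0.218% lower. The 13 others had a median difference of 0.021, and all 13329 probe sets had a median of -0.0088. At an unadjusted p under 0.05, 1 of the 13 was higher, 218121_at of HMOX2, and 0 were lower, where 5.23% of all probe sets were higher and 4.73% lower. HMOX1 was likewise the 1 call among the members in rosiglitazone against control (background 0.270% higher and 0.0900% lower), the combination against control (0.165% higher and 0.0600% lower) and the combination against carboplatin (0.143% higher and 0.0150% lower). In carboplatin against control, the combination against rosiglitazone, the 4 arrays with carboplatin against the 4 without, and the interaction, 0 members were called by limma, where the backgrounds were 0.0150%, 0.0225%, 0.0300% and 0% higher, and 0% lower in all 4. At an unadjusted p under 0.05 those counts were 0, 1, 1 and 0, and in both cases the 1 was HMOX1, higher. Over all probe sets, 2.82%, 2.20%, 2.30% and 2.61% were higher and 2.35%, 2.33%, 1.69% and 3.34% lower at that level in these 4 comparisons. Over 141 combinations of an alternative setting and a comparison, 0 gave a call for any member other than HMOX1.

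**Figure D3:**
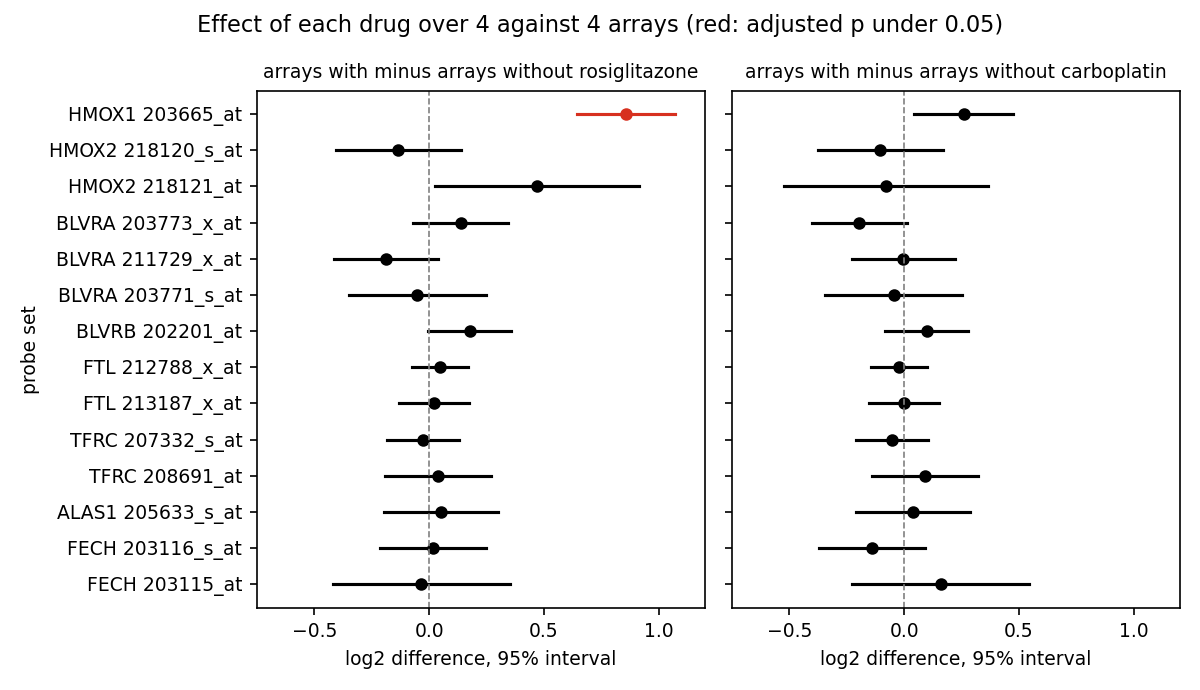
Log2 difference with its 95% interval for the 14 tested member probe sets, over 4 arrays with minus 4 arrays without rosiglitazone (left) and likewise for carboplatin (right). HMOX1 at 0.86 is the 1 red point (adjusted p under 0.05), and the intervals of 12 of the other 13 cross 0 on the left, the exception being 218121_at of HMOX2 at 0.47.

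A wider list of 46 other heme and iron genes, drawn up with earlier results of these data known, had 37 genes with a named probe set and 31 with a tested one, as 56 probe sets. Over the 4 arrays with rosiglitazone against the 4 without, 1 of the 56 was called higher and 0 lower, where 0.675% of all probe sets were called higher and 0.218% lower. The 1 was POR (208928_at), the reductase that hands electrons to heme oxygenase and to microsomal cytochromes P450. The list's median difference was -0.016, with 22 of the 56 above 0.

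POR stood at 9.20 and 9.11 with the combination, 9.03 and 9.01 with rosiglitazone alone, 8.14 and 8.19 with carboplatin, and 8.38 and 8.37 in control. As with HMOX1, its 4 rosiglitazone arrays were all above the other 4, as was true of 3.19% of all probe sets tested. Its carboplatin arrays lay below control, as did those of 2512 of the 13329 tested, where those of HMOX1 lay above. That difference of POR was -0.21 ± 0.13 (limma adjusted p = 0.929), and neither gene was called in carboplatin against control. POR rose by 0.82 ± 0.089 over the 4 arrays with rosiglitazone against the 4 without (1.76-fold, 95% interval 1.54 to 2.02, limma adjusted p = 0.0018). That call was lost in 1 of 17 alternatives, the deposited scaling (1.01, adjusted p = 0.0639).

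In pairs of groups, POR rose by 0.78 ± 0.13 in the combination against control (limma adjusted p = 0.036) and by 0.99 ± 0.13 in the combination against carboplatin (adjusted p = 0.018). Rosiglitazone against control gave 0.64 ± 0.13 and did not pass (adjusted p = 0.0636). The combination against control was called in 5 of 18 alternatives and lost when any 1 of the 8 arrays was left out, at adjusted p-values of 0.0540 (carboplatin 1), 0.0539 (carboplatin 2), 0.0562 (rosiglitazone 1), 0.0572 (rosiglitazone 2), 0.155 (control 1), 0.196 (control 2), 0.185 (combination 1) and 0.116 (combination 2). The combination against carboplatin was called in 10 of 18, and lost without carboplatin 1 (adjusted p = 0.147), carboplatin 2 (0.114), combination 1 (0.117) or combination 2 (0.0714). The interaction for POR was 0.35 ± 0.18 and did not pass (adjusted p = 0.834).

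**Figure D4:**
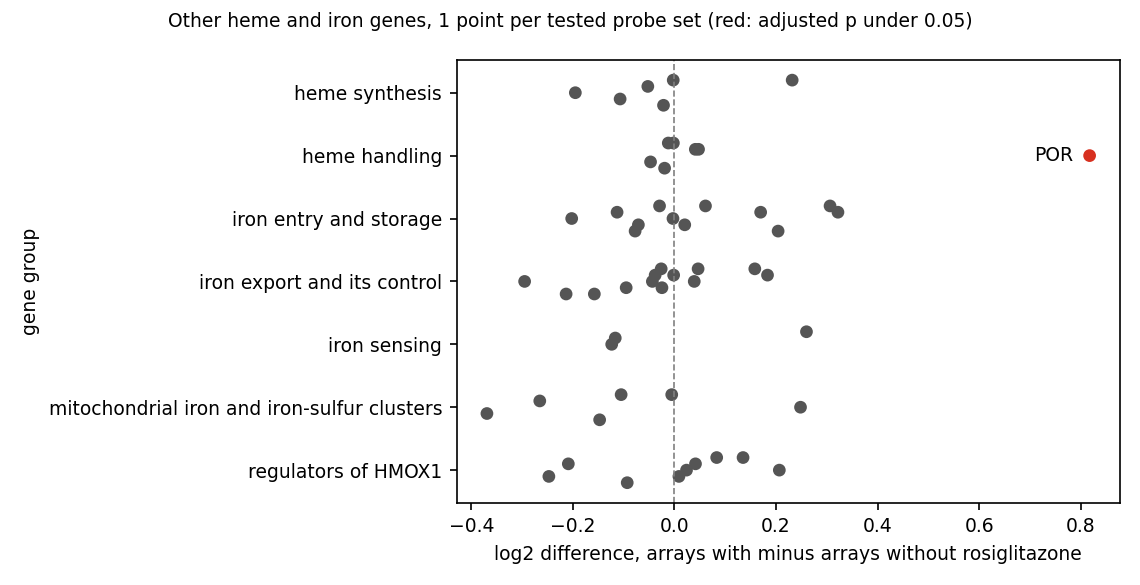
Log2 difference of arrays with minus arrays without rosiglitazone (4 against 4) for the 56 tested probe sets of the wider list, in 7 gene groups, 1 point each. POR at 0.82 is the 1 red point (adjusted p under 0.05), and the other points lie between -0.37 and 0.32.

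The other groups of the list held no called gene, and the gene of smallest p in each is given. Of 6 heme synthesis probe sets 1 was above 0, UROS, which closes the tetrapyrrole ring (0.23 ± 0.10). Of 12 for iron entry and storage 6 were above 0, with the smallest p at SLC11A2, the divalent metal transporter (203123_s_at, 0.31 ± 0.13). Among 13 for iron export and its control, 12 of which read HFE, the smallest p was that of HAMP, the iron hormone hepcidin (-0.30 ± 0.23). The HAMP probe set was dim, with deposited signals of 16.7 to 48.2 and a mean at percentile 41.4, just past the filter. Its difference was -0.17 without carboplatin 2, -0.13 without rosiglitazone 2 and -0.46 without rosiglitazone 1. Iron sensing had 3 probe sets, among them ACO1, the aconitase that doubles as an iron regulatory protein (0.26 ± 0.099). Of 6 for mitochondrial iron 1 was above 0, and SLC25A37, the mitochondrial iron importer, was at -0.27 ± 0.12 (218136_s_at). None of these 5 genes passed over all probe sets.

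Of 9 probe sets for regulators of HMOX1, 6 were above 0 and 0 were called by limma. At an unadjusted p under 0.05 the count was also 0. USF2 had the smallest p (214879_x_at, -0.21 ± 0.14), and its other 2 probe sets were above 0. The first was -0.075 without rosiglitazone 1 and -0.34 without rosiglitazone 2. NFE2L2, which encodes NRF2, differed by 0.14 ± 0.13 and KEAP1, its inhibitor, by 0.024 ± 0.10. BACH1, the repressor, differed by -0.25 ± 0.20, read by a dim probe set. Over the 4 arrays with carboplatin against the 4 without, 6 of the 9 were below 0. The lowest was 202152_x_at of USF2 (-0.87). It stood at 6.57 and 6.77 with the combination and 6.71 and 6.82 with carboplatin. Rosiglitazone alone gave 7.32 and 8.03, and control 7.23 and 7.78. Its 4 arrays with carboplatin lay below the others, as for 154 of the 13329 tested, and it was not called. At an unadjusted limma p under 0.05, 1 of the 9 was lower, against 1.69% of all. These are RNA values, and the activity of these proteins, which is set largely by their stability and location, was not measured.

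The genes whose signal followed HMOX1 most closely over the 8 arrays were taken by Pearson correlation among 11829 tested probe sets with 1 gene symbol. AKR1C1, an aldo-keto reductase, was closest (217626_at, r = 0.982), followed by EPB41L1 (0.960), SH3BGRL3 (0.959), MOSPD1 (0.958) and RAB11B (0.956). AKR1C1 stood at 8.78 and 8.59 with the combination, 8.69 and 8.50 with rosiglitazone alone, 8.03 and 7.97 with carboplatin, and 7.87 and 7.83 in control. It was called over 4 against 4 arrays (0.71 ± 0.10, limma adjusted p = 0.0051), but its close paralogs may be read by the same probes. The call was lost in 1 of 17 alternatives, the deposited scaling (0.91, adjusted p = 0.137). Of the others, EPB41L1 (limma adjusted p = 0.045) and MOSPD1 (0.018) were called, but lost that in 11 and 9 of 17 alternatives. SH3BGRL3 (limma adjusted p = 0.305) and RAB11B (0.056) were not called. All were picked for likeness to HMOX1 over these same arrays, which favours such calls in advance, so the calls are no separate support. In all, 65 genes had an r above 0.9.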

How the data were processed

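The deposited table holds 1 linear intensity for each probe set and array. RNA was labelled from its 3′ end with a T7 oligo-dT primer, per the labels' protocols. How the authors computed and scaled the signal is not stated in the labels or the table, and no detection calls were used. The 68 control probe sets were left out of 22283, signals were taken as log2(signal + 16) and quantile normalized, and probe sets with a mean below the 40th percentile were not tested, which left 13329, among them 14 of 15 member probe sets. All 8 arrays entered 1 limma fit of the 4 group means (limma 3.58.1, R 4.3.3, eBayes with an intensity trend, 4 residual and 7.1 prior degrees of freedom). Each of 8 contrasts was tested (two-sided), and p-values were adjusted by Benjamini-Hochberg across the 13329 at 0.05. Intervals are limma's at 95%. Genes were named as all members, the wider list's called genes with the smallest p in each group, and the 5 genes closest to HMOX1 by correlation. Members and lists were chosen with earlier results of these data known. Only probe sets with 1 gene symbol (19071) were named. All 10 symbols were found in the RefSeq table of GRCh38.p14. The fit was tested on simulated data. Alternatives were the deposited and a median scaling, a pseudocount of 1 or 64, a 60th percentile filter or none, no intensity trend, only the groups compared, a replicate block, array brightness as a covariate, and each array left out. For POR and the other non-members they were added after seeing the data. Where 1 array of a group remained, its spread was taken from the other groups. The number of arrays limits the precision.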

Additional observations from a re-analysis of the deposited data

Results flagged for a closer look

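The dim BLVRA probe set 203772_at, left out of the reported fit by the filter, was above both control arrays on both arrays of 2 treated groups in the deposited signal. It averaged 10.3 with the combination (5.77 and 14.9) and 6.25 with carboplatin (2.54 and 9.95), against 1.56 in control (1.24 and 1.88). With rosiglitazone it was at 4.94 and 1.58. Fitted with no filter, it differed by 0.55 ± 0.21 in the combination against control (limma adjusted p = 0.590) and by 0.35 ± 0.21 in carboplatin against control (0.925), and neither passed. All these signals are below the pseudocount of 16, and the 3 brighter BLVRA probe sets were not called in any comparison. Of the 13329 probe sets tested, 2307 lay above both control arrays with the combination and 2166 with carboplatin, on the normalized scale. Both counts use the same control arrays.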

How the results depend on the processing

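The HMOX1 rise over 4 arrays with against 4 without rosiglitazone stayed called in all 17 alternatives (adjusted p 0.0018 to 0.042), and no HMOX1 comparison changed sign in any alternative. The pairwise calls did not all hold. With the deposited scaling, HMOX1 was at 1.02 in rosiglitazone against control (adjusted p = 0.482), 1.19 in the combination against control (0.514) and 1.08 in the combination against carboplatin (1.00). With median scaling the first was at 0.80 (adjusted p = 0.186) and the third at 1.00 (0.0863). With no filter more probe sets are tested, and the first was at 0.78 (adjusted p = 0.109) and the third at 0.93 (0.0938). Without the intensity trend the 3 were at 0.78 (adjusted p = 0.204), 1.12 (0.0911) and 0.93 (0.186). With only the groups compared, fewer arrays, the first was at 0.78 (adjusted p = 0.0630) and the third at 0.93 (0.121). With array brightness as a covariate the first was at 0.89 (adjusted p = 0.0579). Without 1 array the first ran from 0.71 to 0.85, the second from 0.98 to 1.25 and the third from 0.80 to 1.06. The cause of these changes was not tested in any setting.

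With the replicate block rosiglitazone against control was at 0.78 for HMOX1 and lost its call (adjusted p = 0.0536), the other HMOX1 calls were kept, and the count of all called probe sets for that comparison was 43, against 48 without the block. The arrays share only a number: deviations of same-numbered arrays correlated from -0.11 to 0.25 between groups.

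Of 26 differences followed for the other members, 0 were called in any alternative and 18 changed sign in at least 1, all of them small. The deposited scaling moved the median of all probe sets to 0.17 for rosiglitazone and -0.097 for carboplatin. For the 4 with against the 4 without rosiglitazone, the deposited scaling gave 0.060 for 218120_s_at (HMOX2), 0.0021 for 211729_x_at and 0.11 for 203771_s_at (BLVRA), 0.19 for 207332_s_at (TFRC) and 0.15 for 203115_at (FECH). Median scaling gave 0.036 for 207332_s_at and the brightness covariate -0.0070 for 212788_x_at (FTL). For carboplatin, the deposited scaling gave -0.033 for BLVRB, -0.029 for 208691_at (TFRC) and -0.076 for ALAS1. Median scaling gave 0.046 for 212788_x_at, 0.0043 for 213187_x_at and -0.0097 for ALAS1, and the covariate 0.0017 for 212788_x_at. Without 1 array, the rosiglitazone differences ran from -0.10 to 0.00088 (203771_s_at), -0.043 to 0.086 (213187_x_at), -0.067 to 0.015 (207332_s_at), -0.065 to 0.14 (208691_at), -0.023 to 0.12 (ALAS1), -0.035 to 0.070 (203116_s_at) and -0.15 to 0.086 (203115_at). Those for carboplatin ran from -0.25 to 0.084 (218121_at), -0.085 to 0.077 (211729_x_at), -0.098 to 0.0066 (203771_s_at), -0.055 to 0.016 (212788_x_at), -0.066 to 0.066 (213187_x_at), -0.012 to 0.19 (208691_at) and -0.034 to 0.11 (ALAS1).

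Counts over all probe sets moved by more than 1.5 times. They ran from 36 to 142 for 4 with against 4 without rosiglitazone (119 as reported, 64 with the deposited scaling), from 3 to 70 for rosiglitazone against control (48), from 5 to 50 for the combination against control (30) and from 4 to 27 for the combination against carboplatin (21). They ran from 0 to 2 for carboplatin against control (2), from 0 to 3 for the combination against rosiglitazone (3), from 1 to 4 for carboplatin over 4 against 4 arrays (4) and from 0 to 3 for the interaction (0).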
